A study of Mus musculus with 16 samples.

Results

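The genes described here are 38 genes of endoplasmic reticulum (ER) protein folding and collagen secretion in cultured mouse cardiac fibroblasts, measured by RNA sequencing in 16 libraries. They were chosen by function as a list of gene symbols, with earlier results of these data known, and looked up in the table of 55414 genes. All 38 were found and all 38 passed the filter on low counts that left 15285 genes for testing, but Derl3 passed it only through the libraries of 1 cell preparation. By role, 9 are ER Hsp70 and Hsp90 chaperones and their cofactors, 6 are lectin chaperones and protein disulfide isomerases, and 8 belong to ER-associated degradation. A further 6 act in translocation, COPII export and retrieval, 4 are sensors and transcription factors of the unfolded protein response, and 5 are procollagen chaperones or members of the prolyl 3-hydroxylase complex.

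The 4 groups of 4 libraries were fibroblasts given Cre adenovirus and TGF-beta, GFP adenovirus and TGF-beta, Cre adenovirus alone, and GFP adenovirus alone. Cre virus was used to remove exon 2 of Has2, which makes hyaluronan, the matrix sugar polymer, and GFP virus was its control. The treatment protocol gives the cells of all groups as Has2 fl/fl and the genotype field gives wild type C57BL/6J, so the labels differ on the starting genotype. The animals' age was not given in the sources used here. All groups shared passage 2, 24 h of serum starvation, 5 h with virus and 48 h of stimulation. The protocol names bFGF and TGF-beta at 20 ng/mL, and whether the groups without TGF-beta received bFGF in its place cannot be read from it. Each replicate number carries 1 code in the library names and 1 sex in all 4 groups (numbers 1 and 4 male, 2 and 3 female), so it is called a preparation below. The codes of preparations 1 to 3 begin with P and that of preparation 4 with R, letters whose meaning was not given. Whether a preparation held 1 heart or several was not stated.

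Proteins that will be secreted enter the ER through the Sec61 channel and are folded there by chaperones such as BiP (Hspa5) and by enzymes that form disulfide bonds. Misfolded chains are sent back to the cytosol for degradation, and folded cargo leaves in COPII vesicles. When unfolded protein accumulates, the sensors Ern1 (IRE1) and Atf6 and the kinase PERK start the unfolded protein response, which raises transcription of many of these genes through Xbp1 and Atf6. Procollagen needs its own helpers, among them Serpinh1 (HSP47), Fkbp10 and the complex of P3h1, Crtap and Ppib, and cardiac fibroblasts are the main collagen producers of the heart.

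Promoter windows from 250 bases before to 50 bases after the annotated start, 300 bases in all, were taken from RefSeq (GRCm38.p6) and held 31 of the 38 genes. The ER stress response element, searched on both strands as CCAAT and CCACG with any 9 bases between them, was in the windows of 9 of these 31 genes (29.0%) and in 0.119% of all 32851 windows. The 9 genes were Calr, Canx, Creld2, Derl3, Dnajc3, Hsp90b1, Hspa5, Pdia6 and Syvn1. The second element, ATTGG and CCACG with any 1 base between them, was in 2 of 31 (6.45%, Dnajb11 and Herpud1) against 0.0365% of all windows, and the element TGACGTGG was in 3 of 31 (9.68%, Kdelr3, Sec23a and Sec24d) against 0.676%. No 2 matches of different elements overlapped in a gene's window, and such a match is a description of letters and not a shown binding site. Derl3 and Creld2 are printed because their levels differed most between preparations among the genes with the first element, Hspa5 and Hsp90b1 as the central Hsp70 and Hsp90 chaperones of the ER, Herpud1 for the second element, and Kdelr3 and Sec23a because they carry the third and rose with TGF-beta. Sec24d, which also carries the third element, did not pass the TGF-beta comparison in either cell type and is not printed. Capitals mark the fixed letters of the element, and each window is written along the gene's own strand.
Hspa5 (chr2:34771840-34772139, plus strand): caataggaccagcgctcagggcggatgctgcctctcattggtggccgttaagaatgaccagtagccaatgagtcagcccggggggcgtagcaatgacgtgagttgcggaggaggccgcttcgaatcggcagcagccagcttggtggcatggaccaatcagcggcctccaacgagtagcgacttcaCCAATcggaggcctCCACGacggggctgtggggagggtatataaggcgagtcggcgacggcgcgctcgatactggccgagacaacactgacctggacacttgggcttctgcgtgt
Hsp90b1 (chr10:86705395-86705694, minus strand): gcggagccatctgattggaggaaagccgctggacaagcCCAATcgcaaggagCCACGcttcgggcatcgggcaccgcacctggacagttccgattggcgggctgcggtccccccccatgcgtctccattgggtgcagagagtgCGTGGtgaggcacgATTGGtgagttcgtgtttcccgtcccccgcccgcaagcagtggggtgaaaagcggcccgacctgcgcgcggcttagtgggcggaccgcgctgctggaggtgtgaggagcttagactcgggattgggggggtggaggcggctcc
Creld2 (chr15:88819396-88819695, plus strand): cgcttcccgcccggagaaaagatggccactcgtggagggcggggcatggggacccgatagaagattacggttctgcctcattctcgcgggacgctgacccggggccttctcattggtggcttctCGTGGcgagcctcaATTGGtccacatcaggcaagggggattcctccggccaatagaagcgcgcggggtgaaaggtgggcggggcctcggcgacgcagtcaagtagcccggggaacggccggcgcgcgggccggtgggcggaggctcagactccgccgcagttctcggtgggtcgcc
Derl3 (chr10:75893148-75893447, plus strand): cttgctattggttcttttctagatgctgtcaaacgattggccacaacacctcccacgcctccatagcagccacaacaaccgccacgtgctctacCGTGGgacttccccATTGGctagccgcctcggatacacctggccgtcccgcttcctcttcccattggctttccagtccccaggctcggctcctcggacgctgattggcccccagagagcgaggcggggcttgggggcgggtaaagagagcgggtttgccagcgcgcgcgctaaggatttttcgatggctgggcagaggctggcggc
Herpud1 (chr8:94386179-94386478, plus strand): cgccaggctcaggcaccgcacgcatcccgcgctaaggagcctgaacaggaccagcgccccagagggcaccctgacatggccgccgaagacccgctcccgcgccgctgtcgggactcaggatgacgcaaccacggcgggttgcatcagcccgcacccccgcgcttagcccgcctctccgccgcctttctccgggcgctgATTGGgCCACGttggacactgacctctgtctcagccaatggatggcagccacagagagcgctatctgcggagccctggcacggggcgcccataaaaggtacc
Kdelr3 (chr15:79516158-79516457, plus strand): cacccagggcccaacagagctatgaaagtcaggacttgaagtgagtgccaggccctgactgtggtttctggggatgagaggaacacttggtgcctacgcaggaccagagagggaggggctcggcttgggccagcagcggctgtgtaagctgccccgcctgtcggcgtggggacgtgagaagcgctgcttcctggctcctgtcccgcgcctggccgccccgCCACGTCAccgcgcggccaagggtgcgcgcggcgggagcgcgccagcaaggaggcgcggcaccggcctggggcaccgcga
Sec23a (chr12:59011968-59012267, minus strand): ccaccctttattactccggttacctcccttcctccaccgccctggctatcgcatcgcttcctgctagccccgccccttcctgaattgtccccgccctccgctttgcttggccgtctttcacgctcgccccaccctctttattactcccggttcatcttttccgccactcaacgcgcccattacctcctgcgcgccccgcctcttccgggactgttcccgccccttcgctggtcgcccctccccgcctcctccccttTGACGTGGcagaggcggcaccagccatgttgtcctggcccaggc
Counted from the annotated start, the element began at position -65 in Hspa5, and Hsp90b1 held 1 copy at -212 and another on the opposite strand at -107. It lay on the opposite strand at -126 in Creld2 and at -156 in Derl3. The Herpud1 element began at -52, the Kdelr3 element at -30 on the opposite strand, and the Sec23a element at 7, inside the transcribed part.

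The 38 genes together took 1.46 to 2.77% of all counts. Within each preparation, their share was larger with TGF-beta than without it in both Cre and GFP cells, for example 1.72% against 1.47% in GFP cells of preparation 1. Preparation 4 stood apart from the other 3, with 2.77, 2.76, 2.22 and 2.18% in Cre cells with TGF-beta, GFP cells with TGF-beta, Cre cells and GFP cells, against 1.46 to 1.72% in all 12 other libraries. Levels are given as CPM, a gene's count relative to its library's total after TMM scaling, and levels of different genes are compared only per kilobase of annotated exon. On that scale Serpinh1, the collagen-specific chaperone, was the most abundant at 1025 ± 158 CPM per kb (mean ± SD over 16 libraries). Next came Calr, the calcium-binding lectin chaperone calreticulin, at 759 ± 204, and P4hb, the disulfide isomerase that is also a subunit of prolyl 4-hydroxylase, at 697 ± 59.9. The order was not fixed, since Serpinh1 was above Calr in 12 of 16 libraries and Calr above P4hb in 6. P4hb was above the next gene, Pdia3, in all 16, and Pdia3, Hspa5 and Hsp90b1 followed at 393 ± 121, 351 ± 189.7 and 349.8 ± 215 CPM per kb. At the low end were Atf6 at 9.14 ± 2.30, Ern1 at 6.84 ± 1.34 and Derl2 at 6.54 ± 0.761 CPM per kb, with Ern1 above Derl2 in 10 of 16. Exons of another gene on the opposite strand covered 25.0% of the exonic bases of Ppib and 10.3% of those of Hsp90b1, and whether counting used the strand was not given in the sources used here. Another gene's exons on the same strand covered 5.38% of Hsp90b1.

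**Figure D1:**
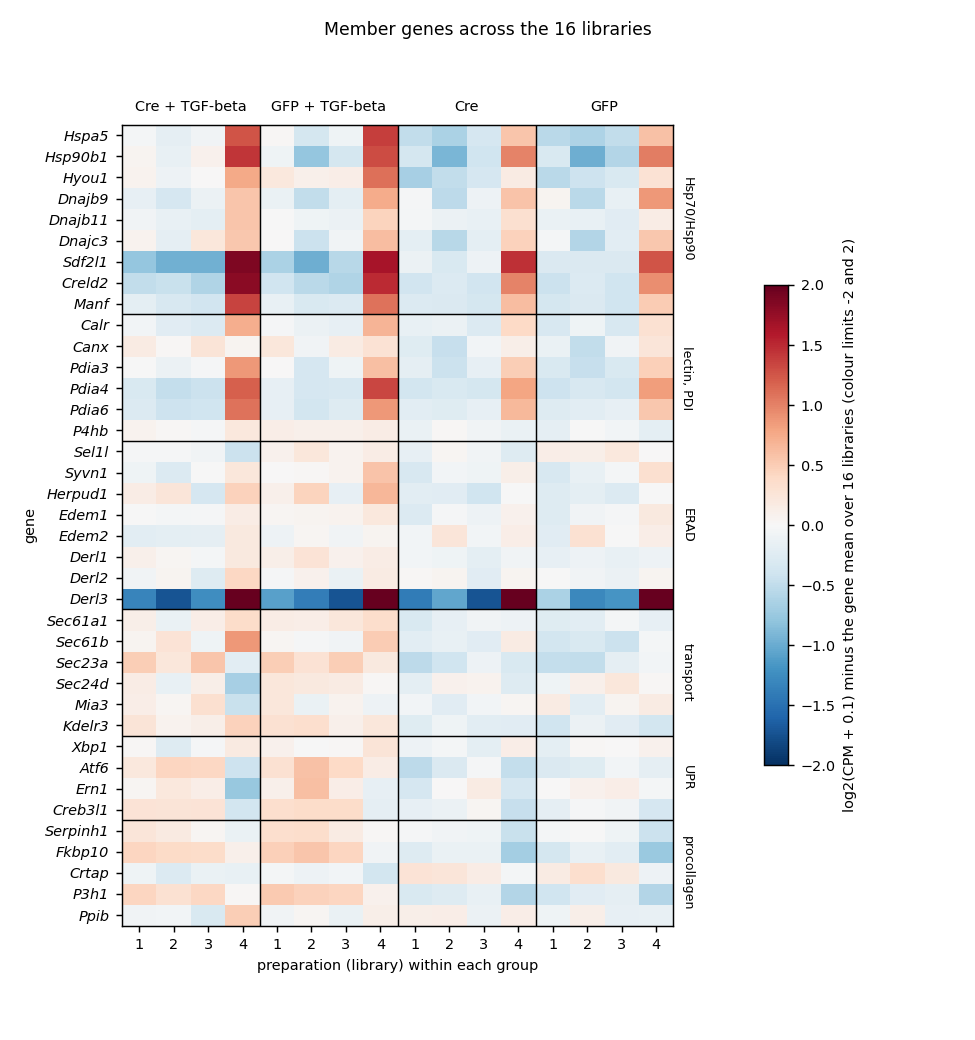
Each square is 1 gene (row) in 1 library (column), coloured by log2(CPM + 0.1) minus that gene's mean over the 16 libraries, with colours limited to -2 and 2. Rows are grouped by role and columns by group. The fourth column of each block, preparation 4, is red in the upper rows (chaperones and disulfide isomerases) in all 4 groups, while Fkbp10, P3h1 and Serpinh1 at the bottom are paler or bluer there than in the other 3 columns.

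Library totals ran from 17858263 to 48748487 counts. Has2 itself is no check of the deletion here, because counts over the whole gene need not fall when 1 exon is removed. In preparations 1 to 4 it had 12.5, 11.04, 25.03 and 17.4 CPM in Cre cells with TGF-beta against 15.3, 9.47, 21.9 and 20.7 CPM in GFP cells with TGF-beta, and 14.9, 13.5, 16.6 and 13.9 CPM in Cre cells against 17.97, 15.3, 23.2 and 18.4 CPM in GFP cells. The groups overlapped in both media. With the preparation as a block, the log2 fold change of Has2 was -0.04 ± 0.15 (SE) with TGF-beta, with both directions among the preparations, and -0.32 ± 0.15 without it, where Cre cells were lower in all 4 preparations. The edgeR adjusted p was 0.949 with TGF-beta and 0.827 without it (unadjusted p = 0.0528), so no difference in Has2 passed the test. Among the fibroblast markers, Vim lay between 4284 and 5485 CPM and Col1a1 between 4907 and 21328 CPM. Others were less abundant, with Lum at 8.98 to 165 CPM, Tcf21 at 13.7 to 164 CPM and Pdgfra at 57.5 to 1072 CPM. Cardiomyocyte markers were near absent, with Actc1, Pln and Nppa at 0 counts in all 16 libraries and a sum over 10 markers of 3.12 to 23.5 CPM. Pericyte markers summed to 44.9 to 159 CPM and mesothelial markers to 2.79 to 8.61 CPM. Macrophage and leukocyte markers were present, with a sum over 12 markers of 389 to 1440 CPM. Ptprc (CD45) had 2.92 to 25.9 CPM, Csf1r 23.2 to 116 CPM, C1qa 30.3 to 182 CPM and Lyz2 282 to 877 CPM, while Cd163 was near 0.

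With Derl3 set aside, the median ratio of preparation 4 to the other 3 was, among the roles, highest for the ER Hsp70 and Hsp90 chaperones and cofactors. Sdf2l1, a cofactor of BiP, had 110.0 CPM in preparation 4 against 15.3 to 17.5 CPM in the other 3 in Cre cells with TGF-beta and 94.5 CPM in preparation 4 against 15.2 to 20.3 CPM in the other 3 in GFP cells with TGF-beta. Without TGF-beta it had 82.9 CPM in preparation 4 against 24.3 to 27.9 CPM in the other 3 in Cre cells and 72.2 CPM in preparation 4 against 24.5 to 24.7 CPM in the other 3 in GFP cells. Preparation 4 was thus far above the others in every group. Creld2, an ER-resident disulfide isomerase-like protein induced by ER stress, had 244 CPM in preparation 4 against 45.8 to 51.1 CPM in the other 3 in Cre cells with TGF-beta and 195 CPM in preparation 4 against 45.7 to 52.98 CPM in the other 3 in GFP cells with TGF-beta. Its values without TGF-beta were 139 CPM in preparation 4 against 53.4 to 57.4 CPM in the other 3 in Cre cells and 133 CPM in preparation 4 against 51.5 to 57.5 CPM in the other 3 in GFP cells. The same order held for Hspa5, the Hsp70 chaperone BiP. It had 3203 CPM in preparation 4 against 1180.3 to 1308 CPM in the other 3 in Cre cells with TGF-beta, and 2018 CPM in preparation 4 against 874 to 954 CPM in the other 3 in GFP cells.

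Derl3, a derlin of the degradation channel that is turned on by ER stress, was nearly confined to preparation 4 in these libraries. It had 202, 188, 169 and 52 counts in preparation 4 of Cre cells with TGF-beta, GFP cells with TGF-beta, Cre cells and GFP cells, or 8.10, 6.87, 4.15 and 2.64 CPM. In each of the 12 other libraries it had 0 to 3 counts, too few for a usable ratio, so no fold change is given. For its relatives Derl1 and Derl2, preparation 4 was at 1.04 and 1.15 times the median of the other 3 (geometric mean over the 4 groups).

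Derl3 is not counted here, because it entered the test through its level in preparation 4. Of the 37 other genes, 10 were more than 1.5 times above the median of the other 3 preparations in all 4 groups in preparation 4, and 0 were as far below. Among all 15285 genes tested, 5.42% were above and 4.80% below by this rule. By the same rule 0 of the 37 were above or below in preparation 1, 2 or 3, where few genes of any kind passed, 0.294, 0.687 and 0.602% of all genes above and 0.366, 1.37 and 0.366% below. The 10 were Hspa5, Hsp90b1, Hyou1, Dnajb9, Sdf2l1, Creld2, Manf, Pdia3, Pdia4 and Pdia6. Sdf2l1 was 4.19 times, Creld2 3.38 times, Hsp90b1 (the Hsp90 chaperone GRP94) 2.84 times, Pdia4 2.65 times, Hspa5 2.36 times and Manf 2.30 times the other preparations. Pdia6, Dnajb9, Hyou1 and Pdia3 followed at 2.07, 1.79, 1.70 and 1.69 times.

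The roles differed in this respect. The median ratio of preparation 4 to the others was 2.30 for the 9 Hsp70 and Hsp90 chaperones and cofactors and 1.68 for the 6 lectin chaperones and disulfide isomerases. It was 1.15 for the 7 degradation genes other than Derl3, 0.97 for the 6 genes of translocation, export and retrieval, 0.78 for the 4 sensors and transcription factors and 0.79 for the 5 procollagen genes. Xbp1, whose spliced form drives chaperone genes, was at 1.14 times the others as a whole-gene count, which does not separate spliced from unspliced RNA. Serpinh1 at 0.786 times, Fkbp10 at 0.717 times, P3h1 at 0.78 times and Creb3l1 at 0.734 times were lower in preparation 4 than in every other preparation in all 4 groups. Fkbp10 is a prolyl isomerase of procollagen, P3h1 its prolyl 3-hydroxylase and Creb3l1 an ER-bound transcription factor of collagen genes. The 8 genes other than Derl3 with the ER stress response element described above had a median ratio of 1.87 (range 1.14 to 3.38). The 22 genes whose windows lacked it had 1.13 (range 0.749 to 4.19). All of the 8 but Syvn1 were chaperones, cofactors or disulfide isomerases, so this contrast is also one between roles. Genes without a window, Manf and Hyou1 among them, are in neither set. Sdf2l1 and Pdia4 were among those 22.

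**Figure D2:**
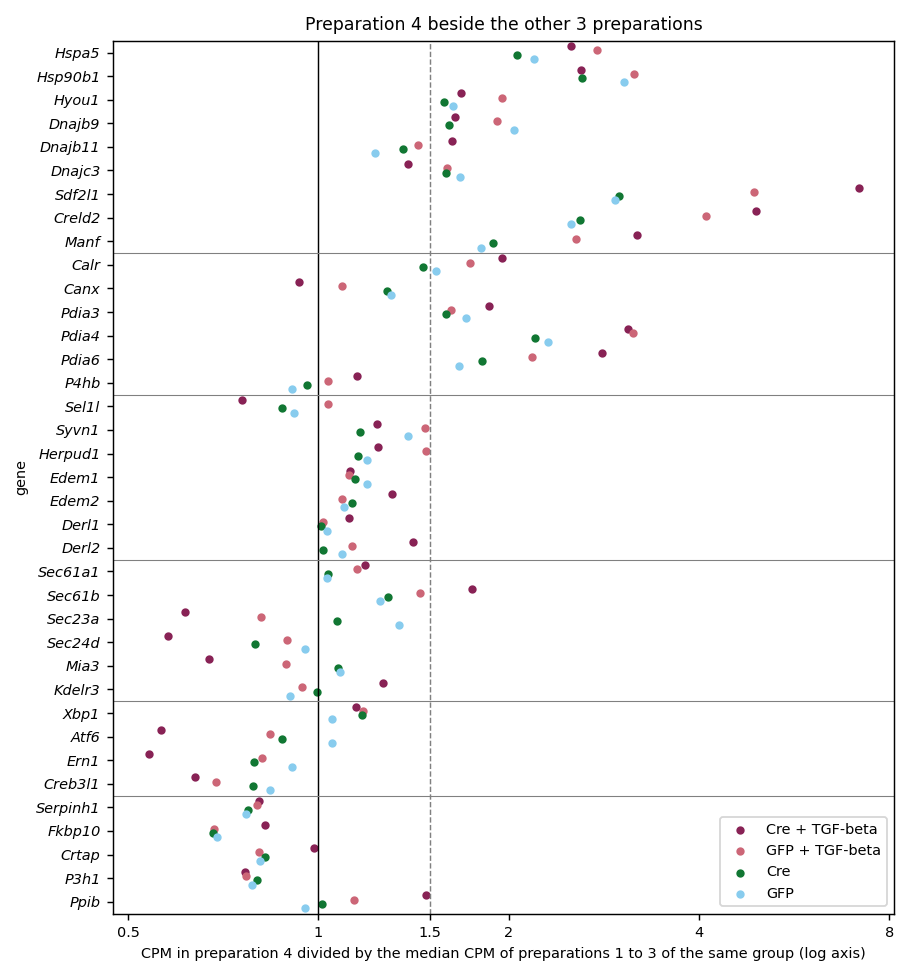
Each point gives, on a log axis, the CPM of preparation 4 divided by the median CPM of preparations 1 to 3 in the same group. Rows are genes grouped by role, without Derl3, which was near 0 outside preparation 4. Solid and dashed lines mark ratios of 1 and 1.5, and the points of most genes in the top 2 blocks lie right of the dashed line in every group while Serpinh1, Fkbp10, P3h1 and Creb3l1 lie left of 1.

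Other measures moved with preparation 4. Collagen RNA was lower there, with Col1a1 at 5288 CPM in GFP cells of preparation 4 against 10265 to 11794 CPM in the others, and Col3a1 at 7127 against 18451 to 22192 CPM. The summed CPM of 12 fibroblast markers was 20854 in preparation 4 of Cre cells with TGF-beta against 40803 to 45188 in the others, and 26812 against 51969 to 54601 in GFP cells. These sums include Col1a1, Col1a2, Col3a1 and Vim. The 12 macrophage and leukocyte markers summed to 917 CPM in preparation 4 of Cre cells with TGF-beta against 389 to 567, to 865 against 408 to 573 in GFP cells with TGF-beta, to 1440.2 against 564 to 743 in Cre cells and to 1366 against 669 to 812 in GFP cells. The 6 pericyte markers summed to 44.9 CPM in preparation 4 of Cre cells with TGF-beta against 95.1 to 111, 67.6 CPM in preparation 4 of GFP cells with TGF-beta against 98.6 to 141, 59.1 CPM in preparation 4 of Cre cells against 125 to 141 and 71.4 CPM in that of GFP cells against 152 to 159 in the others. Preparation 4 was thus above the others in the summed leukocyte markers and below them in the summed fibroblast and pericyte markers in all 4 groups. Each sum is carried by its most abundant genes and need not hold for every gene of its list. Those were the collagens among fibroblast markers, Lyz2 among leukocyte markers, and Cspg4 and Notch3 among pericyte markers. Vim lay between 4284 and 5485 CPM in all libraries. The part of these sums in the ER result was not tested, and in such bulk libraries fewer cells of a type and less RNA per cell cannot be told apart.

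**Figure D3:**
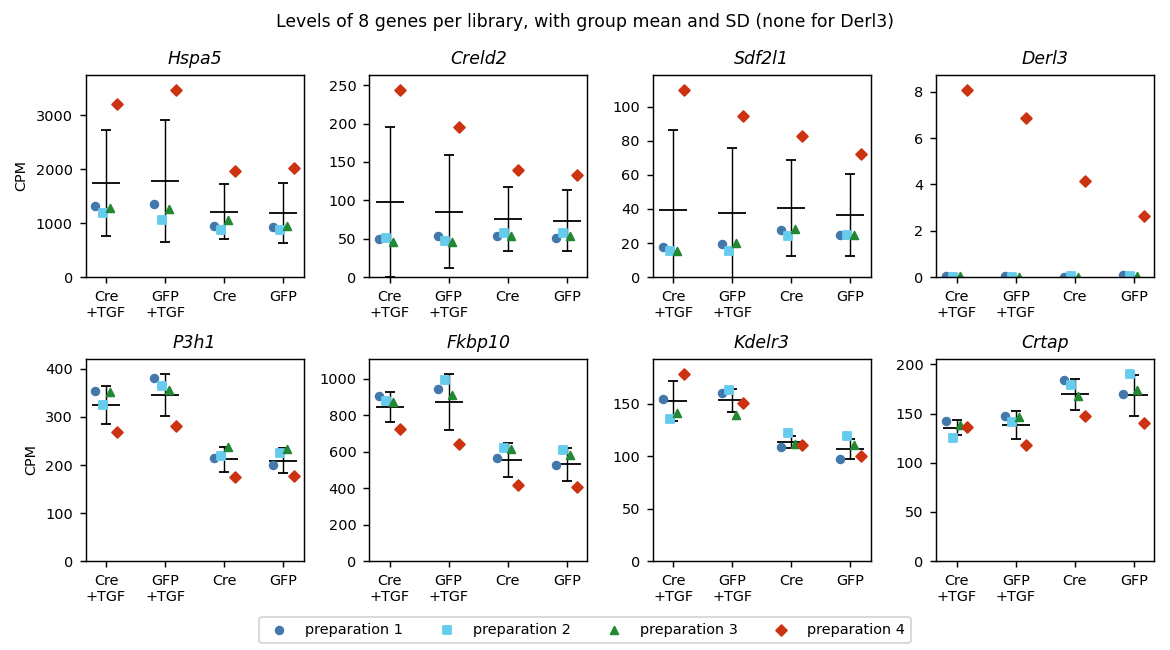
CPM of 8 genes in each library, by group, with the group mean and SD as lines (none for Derl3) and 1 symbol per preparation. In the top row (Hspa5, Creld2, Sdf2l1, Derl3) preparation 4 is above the other 3 in every group. In the bottom row P3h1, Fkbp10 and Kdelr3 are higher and Crtap is lower with TGF-beta within every preparation.

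TGF-beta, the cytokine that drives fibroblasts towards matrix production, was compared with no TGF-beta separately in Cre and in GFP cells. In Cre cells, 6 of the 38 genes rose (15.8%) and 1 fell by edgeR's quasi-likelihood test at a Benjamini-Hochberg adjusted p under 0.05, called the edgeR adjusted p below. Of all genes tested, 14.0% rose and 16.3% fell. P3h1, Fkbp10, Kdelr3, Sec23a, Sec61a1 and Atf6 rose and Crtap fell. In GFP cells the same 6 genes and Derl1 rose, 7 in all (18.4%), and 0 fell, against 13.8% of all genes that rose and 15.3% that fell. The median log2 fold change of the 38 genes was 0.21 in Cre cells and 0.23 in GFP cells, where the median of all genes was 0.02 and -0.02. With the preparation as a block, which the shared codes of the libraries support as a pairing, 17 genes rose and 1 fell in Cre cells (44.7 and 2.63%) and 18 rose and 1 fell in GFP cells (47.4 and 2.63%). The shares of all genes by that fit were 25.2% risen and 27.3% fallen in Cre cells, and 22.6% risen and 26.5% fallen in GFP cells. In 16 of the 38 genes in Cre cells and 21 in GFP cells, all 4 preparations were higher with TGF-beta, and in 1 of the 38 in each they were all lower. Of all genes, 25.5% were higher and 29.6% lower in all 4 preparations of Cre cells, and 28.2% higher and 31.2% lower in those of GFP cells. DESeq2, without the block, called the genes that edgeR called without it and added Derl1 in Cre cells, and P4hb, Herpud1, Serpinh1 and the lower Crtap in GFP cells. Over all 15285 genes DESeq2 called 2453 higher and 2814 lower in Cre cells, and 2387 higher and 2621 lower in GFP cells.

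The counts depended on which preparations entered. Without preparation 4, Derl3 was no longer tested, and 11 of 37 genes rose and 2 fell in Cre cells (all genes, 20.2 and 22.5%), while 13 rose and 2 fell in GFP cells (all genes, 18.6 and 21.3%). With the block and without preparation 4, 18 rose and 4 fell in Cre cells (all genes, 28.0 and 28.6%), and 18 rose and 2 fell in GFP cells (all genes, 25.3 and 27.7%). The 4 that fell in Cre cells were Sdf2l1, Edem2, Crtap and Ppib, and the 2 in GFP cells were Sdf2l1 and Crtap. Without preparation 4 and without the block, Hspa5, Hyou1, Sec61b, Creb3l1 and Serpinh1 were among the risen genes of both cell types, with Canx in Cre cells and P4hb in GFP cells. Without the block, leaving out preparation 1 left 1 gene risen in Cre cells and 2 in GFP cells, where 991 and 1026 of all 15389 genes rose. Leaving out preparation 2 left 4 in GFP cells, beside 1341 of all 15235 genes. Leaving out preparation 3 lowered the count in Cre cells to 3, beside 1380 of all 15493. The counts over all genes thus also fell below the 2134 in Cre cells and 2105 in GFP cells that rose with every library kept. Leaving out the single preparation 4 library of Cre cells with TGF-beta, which lies outside the comparison in GFP cells but shares its estimate of spread, gave 12 genes risen there, beside 2502 of all 15480.

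The strongest rises among the procollagen genes were in P3h1 and Fkbp10. P3h1 had 355, 325, 352 and 269.7 CPM in preparations 1 to 4 of Cre cells with TGF-beta, against 214, 219.8, 238 and 176 CPM without it. In GFP cells it had 381, 365, 355 and 281 CPM with TGF-beta, against 201, 224, 234 and 176 CPM without it. The groups did not overlap in either cell type, although preparation 4 was lowest in each. The log2 fold change was 0.62 ± 0.13 (SE) in Cre cells, edgeR adjusted p = 0.00234, and 0.73 ± 0.13 in GFP cells, edgeR adjusted p = 0.000736. Fkbp10 had 905, 880.2, 872 and 724 CPM in Cre cells with TGF-beta, against 563, 618, 617 and 419 CPM without it. In GFP cells its values were 943, 992, 909 and 644 CPM with TGF-beta, against 528, 607, 584 and 404 CPM without it. Again every library with TGF-beta was above every library without it. Fkbp10 rose by 0.61 ± 0.16 in Cre cells (edgeR adjusted p = 0.011) and by 0.72 ± 0.16 in GFP cells (edgeR adjusted p = 0.00404) on the log2 scale. Without the block, its call was lost without preparation 1 in both cell types and without preparation 3 in Cre cells.

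Crtap, the partner of P3h1 and Ppib in the prolyl 3-hydroxylase complex, moved the other way. It had 143, 125, 139 and 136 CPM in Cre cells with TGF-beta, against 184, 179, 168 and 148 CPM without it. The values in GFP cells were 148, 142, 147 and 118 CPM with TGF-beta, against 169.7, 191, 174 and 141 CPM without it. In each preparation Crtap was lower with TGF-beta, and only in Cre cells were the groups free of overlap. The log2 fold change was -0.32 ± 0.11 in Cre cells (edgeR adjusted p = 0.0346), and with the block also passed in GFP cells (-0.29 ± 0.08, edgeR adjusted p = 0.00638, against 0.0587 without the block). In Cre cells the call was lost without preparation 1, 2 or 3, and without any 1 of the libraries of preparations 1, 2 and 3 without TGF-beta or 2, 3 and 4 with it. Ppib, the prolyl isomerase cyclophilin B, averaged 456 ± 114 CPM in Cre cells with TGF-beta and 465 ± 38.6 without, and 439.9 ± 33.9 CPM in GFP cells with TGF-beta and 423 ± 39.6 without (mean ± SD, n = 4). It did not pass in either cell type, with or without the block.

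Serpinh1 was higher with TGF-beta in all 4 preparations of both cell types. It had 2922, 2813, 2541 and 2264 CPM in Cre cells with TGF-beta, against 2436, 2352, 2330.0 and 1819 CPM without it. In GFP cells it had 3132, 3159, 2761 and 2505 CPM with TGF-beta, against 2396, 2462, 2322 and 1840.1 CPM without it. Preparation 4 was low throughout, and the groups overlapped in Cre cells and not in GFP cells. The rise passed with the block, by 0.24 ± 0.06 in Cre cells (edgeR adjusted p = 0.00404) and 0.36 ± 0.06 in GFP cells (edgeR adjusted p = 0.000172), and not without it when all libraries were kept (edgeR adjusted p = 0.182 and 0.0519).

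Of the 6 genes of translocation, export and retrieval, Sec61a1, Sec23a and Kdelr3 rose in both cell types. Kdelr3, a receptor that returns escaped ER proteins from the Golgi, had 155, 136, 141 and 178 CPM in Cre cells with TGF-beta, against 109, 122, 112 and 111 CPM without it. In GFP cells Kdelr3 had 160.1, 163, 139 and 151 CPM with TGF-beta, against 97.6, 119, 111 and 99.7 CPM without it. Neither pair of groups overlapped. The rise was 0.43 ± 0.10 in Cre cells (edgeR adjusted p = 0.0046) and 0.52 ± 0.10 in GFP cells (edgeR adjusted p = 0.00115). Without the block, the call in Cre cells was lost without preparation 1.

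Sec23a, the inner COPII coat subunit needed for collagen export, had 285, 236, 297 and 175 CPM in Cre cells with TGF-beta, against 140.4, 153, 189 and 164 CPM without it. It had 285, 248, 286 and 231 CPM in GFP cells with TGF-beta, against 146, 143, 179 and 195 CPM without it. The groups overlapped in Cre cells through preparation 4. Its log2 differences between libraries of the same preparation were 1.02, 0.62, 0.65 and 0.10 in preparations 1 to 4 of Cre cells and 0.97, 0.79, 0.67 and 0.24 in those of GFP cells, smallest in preparation 4 in both. The fitted rise was 0.62 ± 0.16 in Cre cells (edgeR adjusted p = 0.00857) and 0.66 ± 0.16 in GFP cells (edgeR adjusted p = 0.0058). Without the block, both calls were lost without preparation 1 and without preparation 2. Its coat partner Sec24d averaged 224 ± 53.4 CPM in Cre cells with TGF-beta and 229 ± 28.1 without, and 268 ± 15.3 CPM in GFP cells with TGF-beta and 252 ± 22.7 without, and did not pass. Mia3 (TANGO1), which loads procollagen into COPII carriers, did not pass either, with 208 ± 43.5 CPM in Cre cells with TGF-beta and 192 ± 15.04 without, and 205 ± 24.4 CPM in GFP cells with TGF-beta and 209 ± 24.5 without.

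The channel subunit Sec61a1 had 365, 305, 366 and 433 CPM in Cre cells with TGF-beta, against 270.5, 301, 319 and 312 CPM without it. Its values in GFP cells were 371, 367, 392 and 427 CPM with TGF-beta, against 282, 291, 325 and 300.3 CPM without it. The groups overlapped in Cre cells and not in GFP cells, with a rise of 0.29 ± 0.10 in Cre cells (edgeR adjusted p = 0.0457) and 0.38 ± 0.10 in GFP cells (edgeR adjusted p = 0.0126). The call in GFP cells was lost without preparation 1. The call in Cre cells was lost with no filter, with a stricter filter, with only the libraries compared, and without preparation 1, 3 or 4. It was also lost without any 1 library of Cre cells, without that of preparation 1, 3 or 4 of Cre cells with TGF-beta, and without that of preparation 1 or 2 of GFP cells or 1, 2 or 3 of GFP cells with TGF-beta, which enter only through the shared spread. With the block it passed and was lost without preparation 1. Sec61b, the small beta subunit, had 64.2 to 157 CPM over the 16 libraries and rose with the block, by 0.39 ± 0.08 in Cre cells (edgeR adjusted p = 0.00128) and 0.39 ± 0.08 in GFP cells (edgeR adjusted p = 0.00129). Without the block it did not pass with all libraries kept, and passed in both cell types without preparation 4.

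Among the sensors and transcription factors, Atf6 rose. It had 94.96, 109.8, 109 and 61.6 CPM in Cre cells with TGF-beta, against 56.7, 67.2, 80.2 and 58.8 CPM without it. GFP cells had 101, 123, 108 and 90.6 CPM with TGF-beta, against 67.3, 68.9, 78.7 and 72.4 CPM without it. Preparation 4 of Cre cells showed almost no difference, and there the groups overlapped. The rise was 0.52 ± 0.16 in Cre cells (edgeR adjusted p = 0.0275) and 0.56 ± 0.16 in GFP cells (edgeR adjusted p = 0.0183). In Cre cells the call was lost with only the libraries compared, without preparation 1, 2 or 3, and without any 1 of the libraries of preparations 1, 2 and 4 without TGF-beta or 1, 2 and 3 with it. In GFP cells it was lost without preparation 1 or 2, without the library of preparation 1 without TGF-beta and without that of preparation 2 with it. With the block both calls held, also without any 1 preparation. Creb3l1 rose with the block, by 0.29 ± 0.07 in Cre cells (edgeR adjusted p = 0.00468) and 0.37 ± 0.08 in GFP cells (edgeR adjusted p = 0.00073), and was higher in all 4 preparations of both. Xbp1 averaged 130.4 ± 16.2 CPM in Cre cells with TGF-beta and 127 ± 11.9 without, and 140.1 ± 12 CPM in GFP cells with TGF-beta and 129.9 ± 10.7 without, and did not pass. Ern1, the sensor IRE1, did not pass either, with 53.2 ± 14.1 CPM in Cre cells with TGF-beta and 50.9 ± 8.77 without, and 62.7 ± 14.5 CPM in GFP cells with TGF-beta and 56.8 ± 3.19 without.

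The ER chaperones split into those that were higher with TGF-beta in every preparation and those whose direction changed with the preparation. Hspa5 had 1308, 1180.3, 1276 and 3203 CPM in Cre cells with TGF-beta, against 951, 865, 1065 and 1963 CPM without it. It had 1354, 1052, 1260.3 and 3473 CPM in GFP cells with TGF-beta, against 920.5, 874, 954 and 2018 CPM without it. The groups overlapped only because preparation 4 without TGF-beta was above preparations 1 to 3 with it. With the block the rise of Hspa5 was 0.47 ± 0.09 in Cre cells (edgeR adjusted p = 0.000403) and 0.51 ± 0.09 in GFP cells (edgeR adjusted p = 0.000209), while without it the edgeR adjusted p was 0.382 and 0.346. Hyou1, an ER Hsp70-like exchange factor of BiP, had 410.1, 362, 394 and 661 CPM in Cre cells with TGF-beta against 245, 277, 307 and 438 CPM without it, and 450.2, 418, 426 and 832 CPM in GFP cells with TGF-beta against 269, 293, 316 and 478 CPM without it. Every preparation was higher with TGF-beta, preparation 4 was highest, and Hyou1 rose with the block by 0.52 ± 0.08 in Cre cells (edgeR adjusted p = 6.44e-05, against 0.152 without the block) and 0.62 ± 0.08 in GFP cells (edgeR adjusted p = 1.18e-05, against 0.0855). Hsp90b1 had 1261, 1097, 1287 and 3285 CPM in Cre cells with TGF-beta against 952, 648, 927 and 2422 CPM without it, and 1148, 713, 951 and 3003 CPM in GFP cells with TGF-beta against 984, 618, 810.5 and 2463 CPM without it. The groups overlapped, but each preparation was higher with TGF-beta. Hsp90b1 rose by 0.52 ± 0.08 in Cre cells (edgeR adjusted p = 9.31e-05) and 0.24 ± 0.08 in GFP cells (edgeR adjusted p = 0.0281) with the block and did not pass without it. Dnajc3, the cochaperone p58IPK, passed with the block in Cre cells only (0.29 ± 0.07, edgeR adjusted p = 0.00368, against 0.11 ± 0.07 and 0.25 in GFP cells), and the difference of its 2 responses did not pass.

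Sdf2l1 gave opposite directions. Its log2 differences, TGF-beta minus none, were -0.66, -0.66, -0.86 and 0.41 in preparations 1 to 4 of Cre cells and -0.34, -0.69, -0.28 and 0.39 in those of GFP cells. Preparations 1 to 3 were lower and preparation 4 higher with TGF-beta in both. Over all preparations Sdf2l1 did not pass, and without preparation 4 it fell in Cre cells by 0.72 on the log2 scale (edgeR adjusted p = 0.000431) and in GFP cells by 0.43 (edgeR adjusted p = 0.0121). Creld2 had differences of -0.11, -0.17, -0.22 and 0.81 in Cre cells and 0.04, -0.27, -0.21 and 0.56 in GFP cells. Manf, a secreted ER stress factor, had 0.09, -0.03, -0.03 and 0.73 in Cre cells and 0.20, -0.01, 0.12 and 0.58 in GFP cells. In both genes preparation 4 was the highest, the others lay between -0.27 and 0.20, and neither gene passed. Dnajb9 and Dnajb11, cochaperones of BiP, did not pass in either cell type, with block estimates between -0.09 and 0.14. Over all 16 libraries Dnajb9 had 24.5 to 65.2 CPM, Dnajb11 198 to 338 CPM, Dnajc3 125 to 288 CPM and Manf 151 to 508 CPM.

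The lectin chaperones and disulfide isomerases showed small differences. Over the 16 libraries Canx had 504 to 865 CPM, Pdia3 865 to 2165 CPM, P4hb 1734 to 2311 CPM, Calr 1704 to 3536 CPM, Pdia4 317 to 1115 CPM and Pdia6 373 to 1056 CPM. With the block, Canx (calnexin) rose by 0.29 ± 0.09 in Cre cells (edgeR adjusted p = 0.0163) and 0.26 ± 0.09 in GFP cells (edgeR adjusted p = 0.0277). Pdia3, the disulfide isomerase that works with calnexin and calreticulin, rose by 0.25 ± 0.06 in Cre cells (edgeR adjusted p = 0.00333) and 0.20 ± 0.06 in GFP cells (edgeR adjusted p = 0.0174). P4hb passed by this fit in GFP cells only (0.23 ± 0.07, edgeR adjusted p = 0.0147, against 0.15 ± 0.07 and 0.0884 in Cre cells). Calr, Pdia4 and Pdia6 did not pass, and the differences of Pdia4 were 0.05, -0.18, -0.07 and 0.41 in Cre cells and 0.26, -0.02, 0.05 and 0.50 in GFP cells. Preparation 4 was again the highest of the 4 for Pdia4 and Pdia6 in both cell types.

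In ER-associated degradation, Derl1, a channel component, averaged 210.1 ± 14.6 CPM in Cre cells with TGF-beta and 186 ± 8.47 without, and 222 ± 11.98 CPM in GFP cells with TGF-beta and 182 ± 4.42 without (n = 4). It rose by 0.29 ± 0.08 in GFP cells (edgeR adjusted p = 0.00982), where the call was lost with no filter and without preparation 1 or 2. In Cre cells it did not pass without the block (edgeR adjusted p = 0.0907) and passed with it (0.18 ± 0.06, edgeR adjusted p = 0.0209). Herpud1, a stress-induced scaffold of the degradation complex, had 133, 143, 95.1 and 165 CPM in Cre cells with TGF-beta against 103, 103, 90.6 and 119 CPM without it, and 129, 163, 108 and 191 CPM in GFP cells with TGF-beta against 100.5, 105, 99.4 and 119.8 CPM without it. It was higher with TGF-beta in all 4 preparations of both, and rose with the block by 0.35 ± 0.09 in Cre cells (edgeR adjusted p = 0.00527) and 0.45 ± 0.09 in GFP cells (edgeR adjusted p = 0.000952). Syvn1, the ubiquitin ligase HRD1, passed with the block in GFP cells (0.22 ± 0.08, edgeR adjusted p = 0.0306). Its partner Sel1l, the mannosidase-like lectins Edem1 and Edem2, and Derl2 did not pass in either cell type with or without the block, and Derl3 has no usable value outside preparation 4. Over the 16 libraries Syvn1 had 55.7 to 104 CPM, Edem1 105 to 148 CPM, Edem2 28.01 to 40.4 CPM and Derl2 43.7 to 69.98 CPM.

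**Figure D4:**
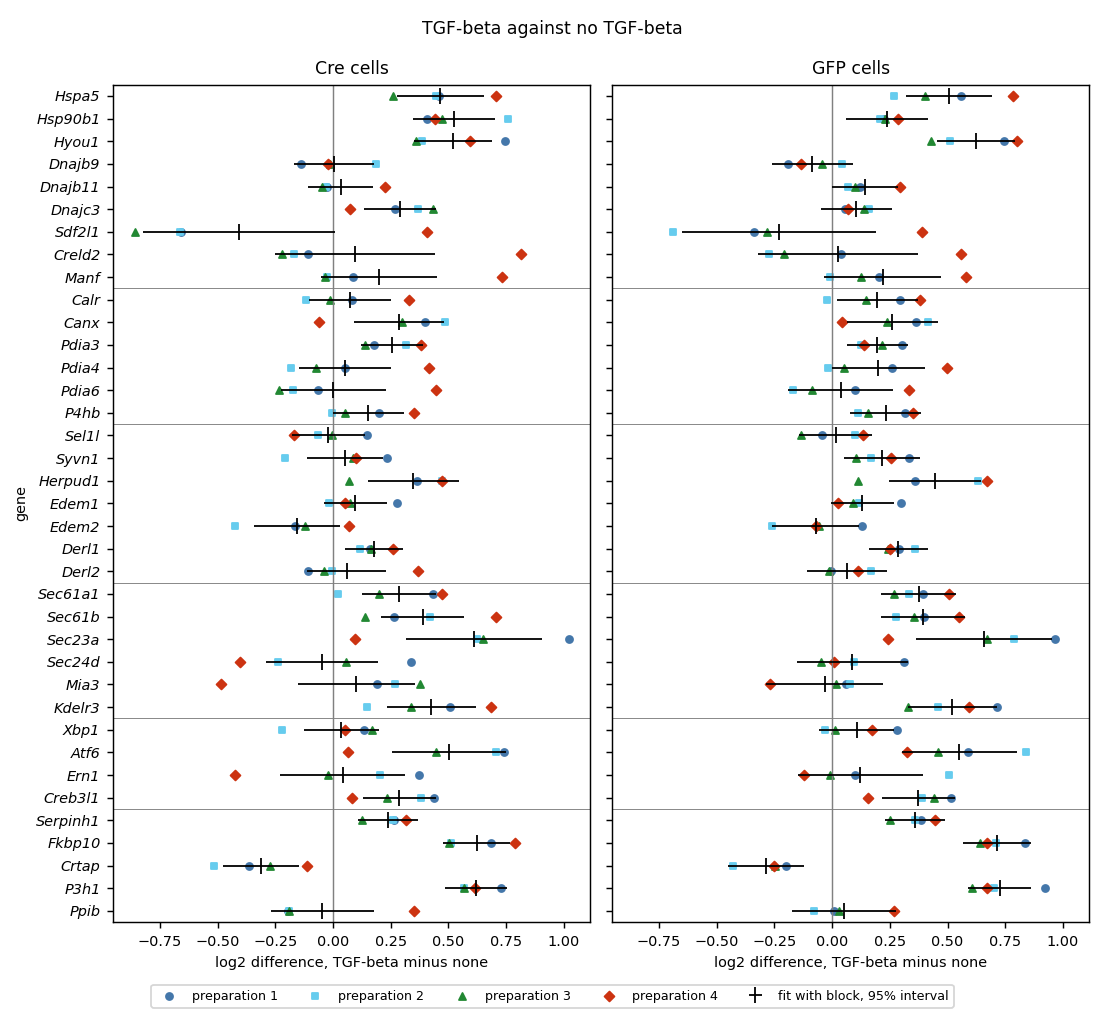
Log2 difference, TGF-beta minus none, for each gene except Derl3 in Cre cells (left) and GFP cells (right). Symbols are the 4 preparations, and black bars the edgeR estimate with the preparation as a block and its 95% interval. P3h1, Fkbp10 and Kdelr3 lie right of 0 in every preparation and Crtap left of 0, while in Sdf2l1, Creld2, Manf, Pdia4 and Pdia6 preparation 4 lies right of the other 3.

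Cell type markers also moved with TGF-beta. The summed macrophage and leukocyte markers were lower with TGF-beta in all 4 preparations, at 389 to 917 CPM against 564 to 1440 CPM in Cre cells and at 408 to 865 CPM against 669 to 1366 CPM in GFP cells. With the block, 10 of the 11 tested markers of that list fell in Cre cells and 11 of 11 in GFP cells. Of the 12 fibroblast markers, 8 fell and 1 rose in Cre cells and 7 fell and 2 rose in GFP cells by the same fit. Of all genes, 25.2% rose and 27.3% fell in Cre cells by that fit, and 22.6% rose and 26.5% fell in GFP cells. Endothelial markers summed to 32.2 to 86.3 CPM and were also lower with TGF-beta in each preparation. The part of these shifts in the TGF-beta result was not tested.

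Neighbouring genes of the pathway, from lists that hold none of the 38, were counted beside them. Values in brackets are log2 fold changes ± SE without the block unless named otherwise. Of all genes tested without the block, 14.0% rose and 16.3% fell in Cre cells, and 13.8% rose and 15.3% fell in GFP cells. With the block, 25.2% of all genes rose and 27.3% fell in Cre cells, and 22.6% rose and 26.5% fell in GFP cells. Of 15 other sensors, proteases and PERK-branch genes of the stress responses, 7 rose and 1 fell in Cre cells and 8 rose and 0 fell in GFP cells, with median log2 fold changes of 0.72 and 0.82. Nupr1, a stress-induced chromatin protein, averaged 490.4 ± 155 CPM with TGF-beta against 127 ± 13.9 CPM without it in Cre cells (1.95 ± 0.20, edgeR adjusted p = 4.3e-06) and 412 ± 65.4 CPM with TGF-beta against 119 ± 10.8 CPM without it in GFP cells (1.80 ± 0.20, edgeR adjusted p = 9.31e-06). Creb3l2, a relative of Creb3l1, averaged 552 ± 85.1 CPM with TGF-beta against 286 ± 47.5 CPM without it in Cre cells (0.95 ± 0.15, edgeR adjusted p = 0.000198) and 650.1 ± 67.2 CPM with TGF-beta against 320.5 ± 45.9 CPM without it in GFP cells (1.02 ± 0.15, edgeR adjusted p = 0.000109). Creb3, another ER-bound factor of this family, rose by 0.72 ± 0.10, edgeR adjusted p = 7.78e-05 in Cre cells, and by 0.82 ± 0.10, edgeR adjusted p = 2.43e-05 in GFP cells.

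Of 27 other genes of translocation and N-glycosylation, 9 rose and 1 fell in Cre cells and 10 rose and 1 fell in GFP cells (with the block 18 and 2, and 18 and 1). Spcs3, a signal peptidase subunit, averaged 181 ± 16.3 CPM with TGF-beta against 81.9 ± 23.8 CPM without it in Cre cells (1.15 ± 0.23, edgeR adjusted p = 0.00152) and 161 ± 8.61 CPM with TGF-beta against 78.5 ± 29.5 CPM without it in GFP cells (1.04 ± 0.23, edgeR adjusted p = 0.00312). The signal recognition particle receptor subunit Srprb rose by 0.51 ± 0.10, edgeR adjusted p = 0.00173 in Cre cells, and by 0.58 ± 0.10, edgeR adjusted p = 0.000643 in GFP cells. Its partner Srpr rose by 0.42 ± 0.08, edgeR adjusted p = 0.0016 in GFP cells. Stt3b, a catalytic subunit of the oligosaccharyltransferase, fell in Cre cells (-0.33 ± 0.09, edgeR adjusted p = 0.00901). Among 32 other genes of COPII transport and ER to Golgi traffic, 10 rose and 1 fell in Cre cells and 11 rose and 1 fell in GFP cells (with the block 17 and 1, and 21 and 1). The COPII coat subunit Sec13 rose by 0.45 ± 0.10, edgeR adjusted p = 0.00305 in Cre cells, and by 0.54 ± 0.10, edgeR adjusted p = 0.000879 in GFP cells. Also among the 3 lowest adjusted p of that list were the tether Uso1 (0.52 ± 0.14, edgeR adjusted p = 0.0103) and the cargo receptor Lman1 (0.40 ± 0.11, edgeR adjusted p = 0.0105) in Cre cells, and the cargo receptor Surf4 (0.40 ± 0.09, edgeR adjusted p = 0.00289) and the coat subunit Sec23b (0.54 ± 0.13, edgeR adjusted p = 0.00565) in GFP cells.

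The other folding and degradation genes moved in both directions, as genes did in general by the shares above. Of 28 other ER folding enzymes, 5 rose and 2 fell in Cre cells and 4 rose and 2 fell in GFP cells, and with the block 9 rose and 8 fell in Cre cells and 6 rose and 5 fell in GFP cells. The disulfide isomerase Pdia5 averaged 112 ± 3.74 CPM with TGF-beta against 69.04 ± 6.26 CPM without it in Cre cells (0.70 ± 0.09, edgeR adjusted p = 5.41e-05) and 109 ± 9.01 CPM with TGF-beta against 66.99 ± 6.27 CPM without it in GFP cells (0.70 ± 0.09, edgeR adjusted p = 5.07e-05). Prkcsh, the beta subunit of glucosidase II, rose by 0.36 ± 0.08, edgeR adjusted p = 0.00454 in Cre cells, and by 0.42 ± 0.09, edgeR adjusted p = 0.00178 in GFP cells. The ER peroxiredoxin Prdx4 fell in Cre cells (-0.50 ± 0.08, edgeR adjusted p = 0.000284) and in GFP cells (-0.45 ± 0.08, edgeR adjusted p = 0.000775). Of 15 other degradation genes, 4 rose and 2 fell in Cre cells and 4 rose and 1 fell in GFP cells (with the block 4 and 5, and 5 and 3). The ubiquitin-conjugating enzyme Ube2g2 rose by 0.51 ± 0.09, edgeR adjusted p = 0.000796 in Cre cells, and by 0.68 ± 0.09, edgeR adjusted p = 7.06e-05 in GFP cells. The extraction ATPase Vcp (0.31 ± 0.08, edgeR adjusted p = 0.0117 in Cre cells, 0.35 ± 0.08, edgeR adjusted p = 0.00607 in GFP cells) and its cofactor Ubxn4 (0.44 ± 0.08, edgeR adjusted p = 0.00098 in Cre cells, 0.35 ± 0.08, edgeR adjusted p = 0.0045 in GFP cells) also rose.

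Of 11 tested genes among 12 other collagen-modifying enzymes, 1 rose and 1 fell in Cre cells and 2 rose and 1 fell in GFP cells (with the block 4 and 4, and 5 and 3). Colgalt1, which adds galactose to collagen, rose by 0.87 ± 0.10, edgeR adjusted p = 9.2e-06 in Cre cells, and by 0.91 ± 0.10, edgeR adjusted p = 6.23e-06 in GFP cells. P4ha3, a catalytic subunit of prolyl 4-hydroxylase, averaged 75.1 ± 19.9 CPM with TGF-beta against 213 ± 40.7 CPM without it in Cre cells (-1.50 ± 0.24, edgeR adjusted p = 0.000228) and 81.4 ± 19.5 CPM with TGF-beta against 236 ± 46.7 CPM without it in GFP cells (-1.54 ± 0.24, edgeR adjusted p = 0.000198). Plod3, a lysyl hydroxylase, rose in GFP cells (0.29 ± 0.08, edgeR adjusted p = 0.0141), and P3h3, a relative of P3h1, averaged 201 ± 43.4 CPM with TGF-beta against 285 ± 59.6 CPM without it in Cre cells without passing (-0.51 ± 0.23, edgeR adjusted p = 0.106).

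The collagens themselves also moved in both directions, as genes did in general. Of 17 collagen genes, 3 rose and 4 fell in each cell type (with the block 7 and 6 in Cre cells, 9 and 6 in GFP cells). Without the block, 14.0% of all genes rose and 16.3% fell in Cre cells, and 13.8% rose and 15.3% fell in GFP cells. The shares with the block were 25.2 and 27.3% in Cre cells, and 22.6 and 26.5% in GFP cells. Col1a1 had 18246, 18726, 17069 and 7319.9 CPM in Cre cells with TGF-beta, against 9521, 10904, 11138 and 4907 CPM without it. In GFP cells Col1a1 had 20367, 21328, 19368 and 8661 CPM with TGF-beta, against 10265, 11313, 11794 and 5288 CPM without it. It was higher with TGF-beta in every preparation and passed with the block, not without it (0.73 ± 0.08 in Cre cells, edgeR adjusted p = 1.4e-06, and 0.83 ± 0.08 in GFP cells, edgeR adjusted p = 3.74e-07). Col1a2 passed with the block in GFP cells only (0.24 ± 0.08, edgeR adjusted p = 0.0162, against 0.18 ± 0.08 and 0.0577 in Cre cells). Col3a1 had 7164, 6787, 5529.5 and 1518 CPM in Cre cells with TGF-beta, against 19911, 19638, 16217 and 6664 CPM without it. Its values in GFP cells were 7825, 7704, 6561 and 2194 CPM with TGF-beta, against 22192, 21210.0, 18451 and 7127 CPM without it. Every preparation was lower with TGF-beta, and Col3a1 fell, with a log2 fold change of -1.57 ± 0.51 in Cre cells (edgeR adjusted p = 0.0298) and -1.51 ± 0.51 in GFP cells (edgeR adjusted p = 0.0369). Collagen VI chains fell further, with Col6a1 at 59.2 ± 27.8 CPM with TGF-beta against 625 ± 234 CPM without it in Cre cells (-3.40 ± 0.52, edgeR adjusted p = 0.000179) and 69.3 ± 31.7 CPM with TGF-beta against 689 ± 266 CPM without it in GFP cells (-3.31 ± 0.52, edgeR adjusted p = 0.000224). Col6a2 (-3.46 ± 0.58, edgeR adjusted p = 0.000386 in Cre cells, -3.35 ± 0.58, edgeR adjusted p = 0.000496 in GFP cells) and Col18a1 (-2.16 ± 0.25, edgeR adjusted p = 1.39e-05 in Cre cells, -2.15 ± 0.25, edgeR adjusted p = 1.48e-05 in GFP cells) fell with it.

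Cre and GFP virus were then compared within each medium, the question of the Has2 deletion. No difference passed in any of the 38 genes, 0 with TGF-beta and 0 without it, where 0% of all genes passed in either direction. DESeq2 and the fit with the block also called 0 of the 38 in both media. With the block, 0.0654% of all genes were higher and 0% lower in Cre cells with TGF-beta, and 0.164% higher and 0.00654% lower without it. DESeq2 called 0 genes in all with TGF-beta and 3 without it. At an unadjusted p under 0.05, edgeR without the block had 268 of all genes and 1 of the 38 with TGF-beta, and 169 of all and 1 of the 38 without it. When the block was added, 6 of the 38 with TGF-beta and 1 without it were under that level, beside 2039 and 882 of all 15285 genes. Cre cells were lower than GFP cells in all 4 preparations in 10 of the 38 genes and higher in 1 with TGF-beta, and lower in 4 and higher in 6 without it. Of all genes, 14.1% were lower and 10.1% higher in all 4 preparations with TGF-beta, and 13.3% lower and 12.7% higher without it. The median log2 fold change of the 38 genes was -0.04 with TGF-beta and 0.01 without it, against 0.00 and -0.01 for all genes.

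Sel1l, the adaptor that holds the degradation ligase Syvn1, was the 1 gene under that level in both media. It had 223, 224, 216 and 168 CPM in Cre cells with TGF-beta, against 242, 264, 238 and 250.2 CPM in GFP cells with TGF-beta. Without TGF-beta it had 201, 234, 216 and 189 CPM in Cre cells, against 249, 247, 261 and 228 CPM in GFP cells. The groups did not overlap with TGF-beta and overlapped without it, and Cre cells were lower in all 4 preparations of both media. The block estimate was -0.27 (95% interval -0.43 to -0.11, edgeR adjusted p = 0.177) with TGF-beta and -0.23 (95% interval -0.39 to -0.07, edgeR adjusted p = 0.605) without it. Over all genes, the Cre over GFP fold change without the block was lower in genes with longer exons, with Spearman's rho across 15259 genes, which are not independent, of -0.28 with TGF-beta and -0.38 without it, and Sel1l has 8555 exonic bases. With a trend on exon length and GC content removed and the block kept, its estimate was -0.13 with TGF-beta and -0.14 without it.

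Hsp90b1 was the other gene near the threshold. It had 1261, 1097, 1287 and 3285 CPM in Cre cells with TGF-beta, against 1148, 713, 951 and 3003 CPM in GFP cells with TGF-beta. Cre cells were higher in all 4 preparations, by 0.13, 0.62, 0.44 and 0.13 on the log2 scale, though the groups overlapped. The block estimate was 0.33 (95% interval 0.16 to 0.51, edgeR adjusted p = 0.14). With the block and without preparation 4 it passed (0.41, edgeR adjusted p = 0.0308), the 1 call among 37 genes, where 1.48% of all genes were higher and 0.0527% lower. Without TGF-beta the same fit called 0 of the 37, with 0.678% of all genes higher and 0.0724% lower. Its differences without TGF-beta were -0.05, 0.07, 0.19 and -0.02, in both directions. The other 4 genes of the 6 with TGF-beta were Hyou1 (-0.20), Syvn1 (-0.20), Sec24d (-0.28) and Serpinh1 (-0.13), with edgeR adjusted p of 0.325, 0.31, 0.334 and 0.368.

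The intervals bound how large a Cre effect these data allow. For Hspa5 the block estimate without TGF-beta was 0.04 (95% interval -0.15 to 0.23), for Serpinh1 -0.01 (-0.14 to 0.12) and for P3h1 0.02 (-0.12 to 0.15). It was wider for Sdf2l1, at 0.13 (-0.28 to 0.55). Of the lists of neighbouring pathway genes none had a gene that passed between Cre and GFP cells in either medium, with or without the block.

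The response to TGF-beta was also compared between Cre and GFP cells, as the difference of the log2 fold changes. It passed in 0 of the 38 genes and in 0% of all genes, with and without the block, also in Dnajc3, P4hb, Syvn1 and Derl1, whose TGF-beta rise passed in 1 cell type only by at least 1 of these fits. At an unadjusted p under 0.05 edgeR had 90 of all genes and 0 of the 38 without the block, DESeq2 had 92 of all and 0 of the 38, and the block gave 501 of all and 1 of the 38, Hsp90b1 at 0.29 (95% interval 0.04 to 0.54, edgeR adjusted p = 1). The interval was -0.30 to 0.08 for P3h1, -0.30 to 0.11 for Fkbp10 and -0.37 to 0.18 for Kdelr3, which rose in both. The 2 responses share no libraries, but both come from the same preparations. A rise seen in both cell types is therefore not an independent repeat.

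**Figure D5:**
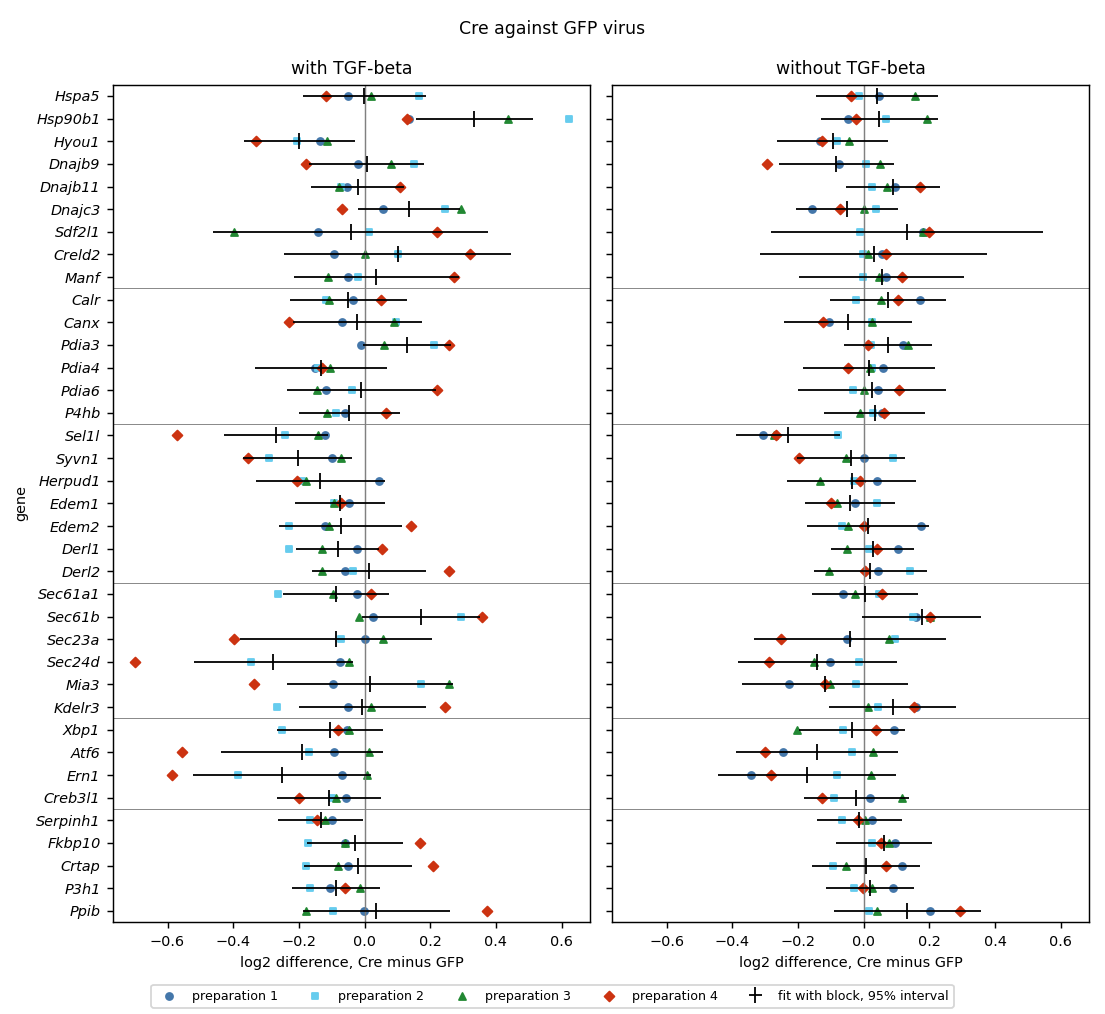
Log2 difference, Cre minus GFP virus, for each gene except Derl3 with TGF-beta (left) and without it (right). Symbols are the 4 preparations, and black bars the edgeR estimate with the preparation as a block and its 95% interval. Most points lie within 0.5 of 0 in both directions, while Hyou1, Sec24d and Sel1l lie left of 0 in all 4 preparations of both panels and Hsp90b1 lies right of 0 in those with TGF-beta.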

How the data were processed

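RNA of 16 cultures was made into libraries with NEBNext Ultra II reagents, according to the labels. The values deposited by the authors are raw counts per gene, in 1 table. FastQC 0.10.1, HTSeq 0.10.0 and build mm39 (GRCm39) are named in the submitters' processing notes. Aligner, annotation and use of strand were not given in the sources used here. The 38 genes and the pathway lists were chosen with earlier results of these data known. All 38 were named, and of each pathway list the up to 3 genes with the smallest adjusted p in each TGF-beta comparison. Symbols came from a reference table (52081 of 55414 identifiers), exon lengths from GENCODE M21, an earlier build, used for names and lengths only. Counts were filtered (filterByExpr, minimum count 10, minimum total 15, leaving 15285 genes and 99.9% of counts) and scaled by TMM. They were tested with edgeR 4.0.16 (R 4.3.3, quasi-likelihood, 1 mean per group over all 16 libraries). On simulated data, 61 to 66% of changes of 1 on the log2 scale were recovered with or without the block. The simulation held no differences between preparations, so it does not check either fit where such differences exist. Replicate numbers pair libraries through codes in the library names. Libraries with the same number deviated together (r = 0.32 to 0.84 over 24 pairs, against -0.68 to 0.29 over 72 others), so values with the number as a block are given where a call changes. Alternatives were DESeq2 1.42.0, other filters and scalings, sex, a length and GC trend, and libraries left out. No 2 libraries of the same group agreed within sampling noise, and pairs from different groups were not compared in this way. Without the block, p-values rest on the spread between libraries of a group, and libraries of 1 preparation are treated as independent. With the block, they rest on the spread left after differences between preparations are removed. Nothing says that preparations came from separate animals, so either spread may be technical.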

Additional observations from a re-analysis of the deposited data

Results flagged for a closer look

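Of 152 sets of 4 libraries (38 genes in 4 groups), 41 held a library set apart from the others. Its gap to its neighbour as a share of the whole range, on log2(CPM + 0.1), exceeded Dixon's 95% critical value for 4 samples. Chance gives about 1 in 20 for independent sets, but these sets share the same 16 libraries, so the count is no test. Derl3, flagged in all 4 groups, entered the fit only through its level in preparation 4. In 33 of the 41 sets preparation 4 was highest, in 5 preparation 4 was lowest and in 3 preparation 3 was lowest. In preparation 4 of Cre cells with TGF-beta, GFP cells with TGF-beta, Cre cells and GFP cells, Sdf2l1 had 110.0, 94.5, 82.9 and 72.2 CPM, Creld2 had 244, 195, 139 and 133 CPM, Manf had 508, 421, 305 and 282 CPM. In the same order, Pdia4 had 1019, 1115, 765 and 789.7 CPM, Pdia6 had 1056, 906, 775 and 719.9 CPM, Derl3 had 8.10, 6.87, 4.15 and 2.64 CPM. Preparation 4 was also highest for Hspa5 (3203 CPM in Cre cells with TGF-beta and 2018 CPM in GFP cells), Hsp90b1 (3285 CPM in Cre cells with TGF-beta), Hyou1 (832 CPM in GFP cells with TGF-beta), Pdia3 (2165 CPM in Cre cells with TGF-beta and 1648 CPM in GFP cells), Syvn1 (104 CPM in GFP cells with TGF-beta), Edem1 (148 CPM in GFP cells with TGF-beta) and Edem2 (37.5 CPM in Cre cells with TGF-beta). Preparation 4 was lowest for Sel1l (168 CPM in Cre cells with TGF-beta), Creb3l1 (84.01 CPM in Cre cells with TGF-beta and 96.6 CPM in GFP cells with TGF-beta), Serpinh1 (1819 CPM in Cre cells) and Fkbp10 (724 CPM in Cre cells with TGF-beta). Preparation 3 was lowest for Derl1 (173 CPM in Cre cells), Derl2 (44.8 CPM in Cre cells) and Ppib (408 CPM in Cre cells). Summed leukocyte markers were higher and summed fibroblast markers lower in preparation 4 (values in the results above), and their part was not tested.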

How the results depend on the processing

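Relative to the fit without a block, the count of genes that rose with TGF-beta was 17 with the replicate block and 10 or 22 with the length and GC trend removed without or with the block in Cre cells (6 otherwise), and 18 with the replicate block and 23 with block and trend in GFP cells (7 otherwise). Over all genes, 2695 rose with the trend, 3856 with the block and 4221 with both in Cre cells (2134 otherwise), and 2575, 3451 and 3910 in GFP cells (2105 otherwise). The count that fell in Cre cells (1) was 0 without a filter, 0 with only the libraries compared and 3 with block and trend. In GFP cells (0) it was 1 under DESeq2, the stricter filter (5 CPM in 4 libraries), the trend, the block and both. In the same order, 2193 of all 29129 genes, 2015 of 14861 and 4096 of 15285 fell in Cre cells. In GFP cells 2621 of 15285, 1848 of 10743, and 2669, 4047 and 4169 of 15285 fell. Leaving out 1 library or 1 replicate number without the block gave 1 to 11 risen and 0 to 2 fallen in Cre cells, and 2 to 13 risen and 0 to 2 fallen in GFP cells. Over all genes the lowest counts came without replicate 1 and the highest without replicate 4. They were 991 to 3061 risen and 1326 to 3418 fallen in Cre cells, and 1026 to 2824 risen and 1213 to 3231 fallen in GFP cells. With the replicate block and without replicate 1, 2, 3 or 4, 13, 14, 15 and 18 rose and 1 to 4 fell in Cre cells. Over all genes 3057, 2892, 3390 and 4251 rose and 3396 to 4335 fell there. In GFP cells 13 (without replicate 1), 15 (without replicate 3) and at most 18 rose and 0 to 2 fell. Over all genes 2571, 2826, 3042 and 3847 rose and 3148 to 4204 fell in GFP cells. Between Cre and GFP cells with TGF-beta 0 to 1 was higher. Without replicate 4 the median there was -0.085, and 224 of all 15183 genes were higher. Sdf2l1 in GFP cells ranged from -0.995 (without the GFP library with TGF-beta of replicate 4) to 0.62 (without the GFP library of replicate 4) and reversed without replicate 4, at -0.43, and at -0.45 with the block as well. The causes were not tested, beyond the fewer libraries and genes that these settings use. Medians under leave-outs ran from 0.062 to 0.35 in Cre cells and 0.044 to 0.36 in GFP cells for TGF-beta, from -0.14 to 0.0044 and -0.095 to 0.058 for Cre against GFP with and without TGF-beta, and from -0.16 to 0.023 for the difference of responses. For that difference, fitting only the libraries compared is the fit of all 16. Other scalings, filters and a term for sex moved no other count past 1.5 times, and the block changed no other call among the 38 than those given above. The BCV, the replicate coefficient of variation, was 0.25 without and 0.12 with the block, and Derl3 is limited by depth, at 0 to 3 counts outside preparation 4.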
